A study of Mus musculus with 15 samples.

Results

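The net change from a non-tumorigenic mammary cell line to its lung-passaged derivative L2P was read from 6 expression arrays, 3 of NMuMG and 3 of L2P, out of 15 arrays in the series. All 18193 genes with a named probe set were compared, each through 1 probe set, the one with the highest mean over the 15 arrays. NMuMG is an immortal mouse mammary gland epithelial line; here it was wild-type and had not been selected in animals. E1KD is NMuMG with hnRNP E1, the product of Pcbp1, silenced, and every line below was derived from it. L1P was recovered from the lungs of NOD/SCID mice that received E1KD cells (passage 1), and L2P from the lungs of mice that received L1P cells (passage 2). M1P was taken from a primary tumour that E1KD had formed in the mammary fat pad (passage 1). Each line is represented by 3 arrays. The culture medium, with 5% fetal bovine and 5% calf serum, was common to the lines, and each array received the amplified product of 100 ng of RNA, primed at the 3′ end. L2P therefore differs from NMuMG both by the silencing and by 2 rounds of growth in animals. No line carrying a control vector was analysed, and each line is 1 line, so the comparison describes these lines.

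hnRNP E1 is an RNA-binding protein that recognises C-rich sequences and takes part in splicing, mRNA stability and translation. In mammary epithelial cells it is known for holding back the translation of a set of transcripts of the epithelial-mesenchymal transition (EMT), the change in which epithelial cells lose polarity and junctions and gain motility, until TGF-beta signalling releases them. Passage through an animal and recovery from lung is a common way to enrich cells that grow at that site.

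Both lines carried RNA of E-cadherin and of keratins of simple epithelia, beside bright mesenchymal genes. The mean log2 signal of the E-cadherin gene Cdh1 was 11.14 in NMuMG and 10.47 in L2P, and those of the keratin genes Krt8 and Krt18 were 14.17 and 14.09 in NMuMG and 13.79 and 13.58 in L2P, on arrays whose median signal lay between 4.17 and 4.26. The adhesion gene Epcam was dim in both, at 5.03 and 5.25. Of other epithelial genes, Spint2 was bright (11.49 and 10.67), while the claudin genes Cldn4 (3.61 and 3.45) and Cldn7 (3.36 and 3.24) were dim. Of mesenchymal genes, Vim (13.33 and 13.78) and Sparc (11.48 and 11.31) were bright, while Cdh11 (2.35 and 2.22) was dim. Because the host of L2P was also a mouse, RNA of host cells cannot be recognised by species, and 8 lists of markers of other cell types were read instead. No more than 1 marker in either direction passed in any list, out of 12 alveolar and airway, 12 macrophage and leukocyte, 12 endothelial, 12 fibroblast, 7 adipocyte, 8 skeletal muscle, 3 erythrocyte and 8 milk-secretion genes tested. The summed log2 signal of the 12 macrophage and leukocyte markers ran from 54.0 to 55.7 in NMuMG and from 54.0 to 57.7 in L2P. That of the 12 alveolar and airway markers ran from 51.8 to 52.9 and from 49.3 to 53.9, and that of the 12 fibroblast markers from 41.5 to 42.4 and from 40.6 to 42.8, so the groups overlapped. Those that passed were the macrophage genes Cd68 (1.17, adjusted p = 0.0324) and Cd14 (-1.05), the alveolar genes Aqp5 (1.03) and Sftpd (-0.76) and the fibroblast genes Mfap5 (0.87) and Pdgfra (-0.49), as log2 differences. The call of Cd68 was lost after quantile normalization and without any 1 of the 6 arrays, and those of Cd14 and Pdgfra without some single arrays. The macrophage lysozyme gene Lyz2 differed by 0.92 (adjusted p = 0.0863). Their part in the results below was not tested. The leukocyte marker Ptprc stayed at 2.49 and 2.46, the surfactant gene Sftpc at 3.95 and 3.79 and the club cell gene Scgb1a1 at 2.45 and 2.54. In bulk RNA, fewer cells of a type and less RNA per cell cannot be told apart.

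The arrays of a line were not equally alike. The first L2P array correlated over all probe sets with the other L2P arrays at r = 0.982 and 0.979, against 0.996 between the second and the third, and its deviations from the line mean correlated at 0.483 across genes with those of the second NMuMG array. The mean distance between arrays was 54.67 within L2P, 48.57 within NMuMG and 101.76 between the lines, on the scale of summed squared log2 differences after the square root, and it was 107.2 within M1P, whose arrays enter the shared estimate of spread. Whether a line's 3 arrays were separate cultures is not in the labels, and the spread behind the p-values may thus be technical.

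Of the 18193 genes, 2591 passed the test in L2P against NMuMG (14.2%), with 1012 higher in L2P (5.56%) and 1579 lower (8.68%). At least 2-fold changes were met by 1224 of them (6.73%), 537 risen (2.95%) and 687 fallen (3.78%). The test was limma's moderated test with an adjusted p under 0.05, and "rose" and "fell" are used below for genes that passed it. The counts of the gene lists below are to be read beside the shares of all genes, 5.56% risen and 8.68% fallen. Members and lists were chosen with earlier results of these data known. A list share above that of all genes is therefore a description, and no list was tested as a set. The shares of all genes include dim genes. Among the 11403 genes kept when dim genes were left out, 987 rose and 1435 fell, which are larger shares. The median log2 difference of all genes was -0.07, close to no shift. The calls depend on which arrays set the spread. Without the M1P arrays 4475 genes passed, without the first L2P array 2906, and without the second or the third L2P array 1743 or 1718. Without each of the NMuMG arrays 1912, 1944 and 1975 passed.

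**Figure D1:**
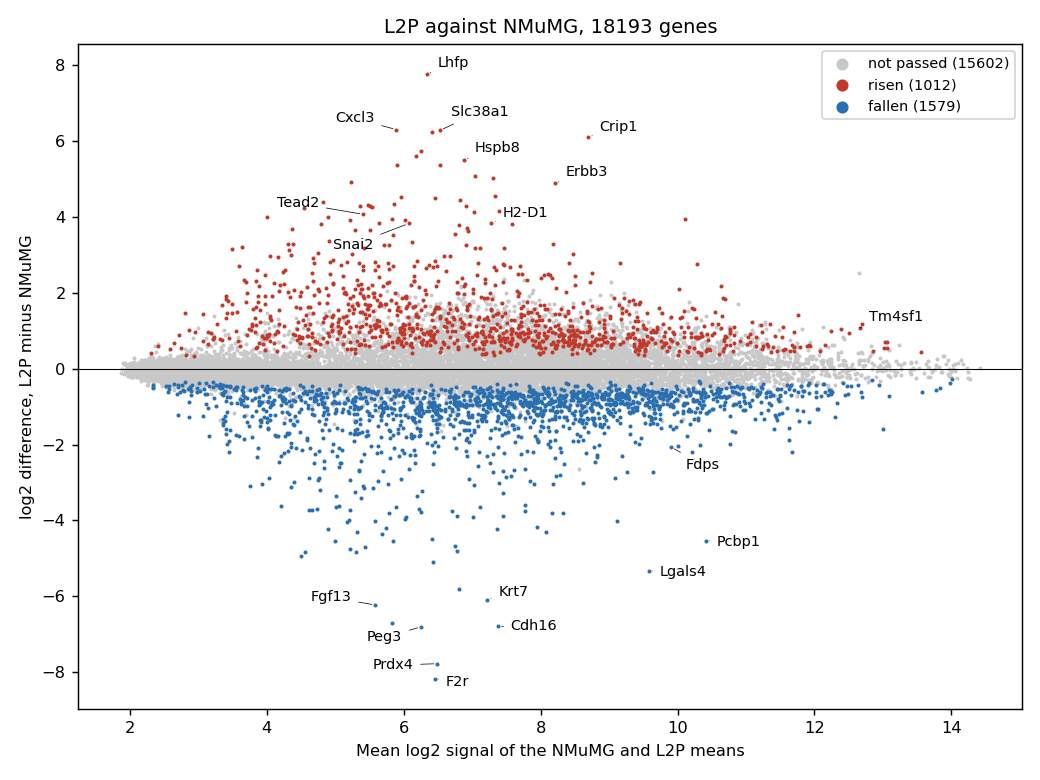
Each point is 1 of 18193 genes, with the mean of its NMuMG and L2P log2 signals on the horizontal axis and the L2P minus NMuMG log2 difference on the vertical axis; red points rose, blue points fell and grey points did not pass. The largest differences reached 7.75 for Lhfp and -8.16 for F2r, and labelled genes are described in the text.

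The silenced gene checks the labels only as far as NMuMG against L2P. Pcbp1 read 12.76, 12.72 and 12.57 in the NMuMG arrays and 8.30, 7.95 and 8.21 in the L2P arrays, on the log2 scale. All L2P arrays lay below all NMuMG arrays, and the fall was 23.1-fold (log2 difference -4.53, SE 0.22, adjusted p = 2.10e-08). Pcbp1 was already low in E1KD, at 9.36, 8.99 and 9.40, and the later differences, -0.75 in L1P and -0.34 in L2P, did not pass. Among 10 genes of poly(C)-binding and related hnRNP proteins, Pcbp1 was the 1 that fell and none rose.

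The 12 largest rises ran from 32.3-fold to 216-fold, from NMuMG means between 2.46 and 5.65 to L2P means between 8.58 and 11.75. Lhfp, which encodes a tetraspan membrane protein, read 2.20, 2.37 and 2.81 in NMuMG and 10.37, 10.21 and 10.06 in L2P. The groups were far apart, and the rise was 216-fold (log2 difference 7.75, SE 0.25, adjusted p = 5.63e-10). Slc38a1, a transporter of glutamine and other neutral amino acids, rose 77.4-fold, from 3.27, 3.46 and 3.44 to 9.37, 9.92 and 9.71. Crip1, a small LIM-domain protein, rose 68.7-fold, from 5.52, 5.62 and 5.80 to 11.85, 11.78 and 11.62. Hspb8, a small heat shock protein, rose 45.4-fold, with NMuMG arrays at or below 4.24 and L2P arrays between 9.47 and 9.87. The rest of the 12 largest rises were Cxcl3 (78.5-fold), a chemokine that attracts neutrophils, the cytochrome P450 gene Cyp2c55 (75.7-fold), Dynap (52.9-fold), Rab32 (48.2-fold), a small GTPase of organelle traffic, Ptprg (41.0-fold), a receptor tyrosine phosphatase, Pfkp (40.9-fold), an isoform of the glycolytic enzyme phosphofructokinase, Hexa (33.9-fold), a subunit of lysosomal hexosaminidase, and the ephrin receptor Epha2 (32.3-fold). Presence calls were not used, and where a line sits near the lowest signals its fold change depends on that lower limit.

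The largest falls ran the other way. F2r, the thrombin receptor, read 10.72, 10.42 and 10.47 in NMuMG and 2.31, 2.30 and 2.50 in L2P, a 287-fold fall (log2 difference -8.16, SE 0.12, adjusted p = 8.76e-14). Prdx4, the peroxiredoxin of the endoplasmic reticulum, fell 219-fold, from 10.32, 10.42 and 10.39 to 2.77, 2.62 and 2.42. In both genes the L2P arrays were close together and near the bottom of the array's range, which began at 1.53. Peg3, a paternally expressed zinc-finger gene, fell 112-fold, from 9.98, 10.02 and 8.96 to 3.31, 2.71 and 2.54. Krt7, a keratin of simple epithelia, fell 68.3-fold, from 10.74, 10.43 and 9.63 to 4.31, 3.92 and 4.30. Lgals4, a galectin of epithelial cells, fell 40.1-fold and kept the widest L2P range of these falls, 6.44 to 7.58, against 12.17 to 12.30 in NMuMG. The other large falls were Cdh16 (111-fold), a cadherin of kidney epithelium, Klhl13 (104-fold), an adaptor of a ubiquitin ligase, Fgf13 (74.9-fold), an intracellular FGF-family protein, Eva1b (55.5-fold), Cmtm7 (34.2-fold), Mal2 (30.4-fold), a membrane-traffic protein of polarised epithelia, and Scara3 (28.5-fold). All 24 genes were chosen for the absence of overlap and the size of their change, so those 2 features are a description, and each of them passed under every alternative that tested it.

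**Figure D2:**
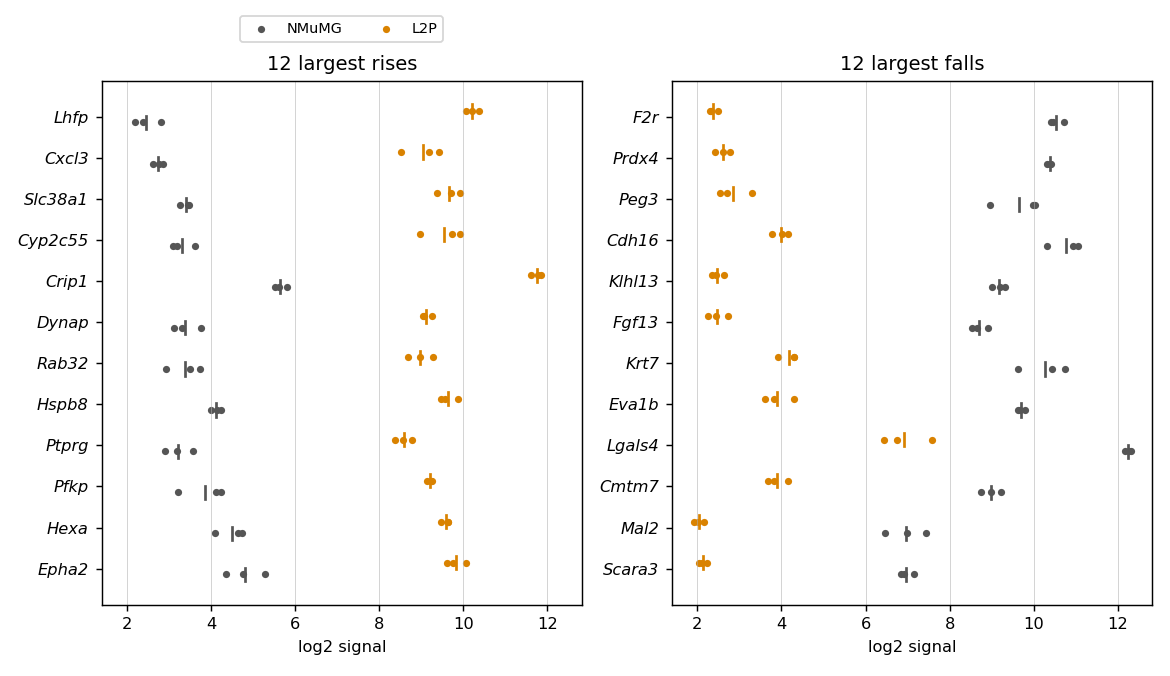
Log2 signal of each NMuMG array (grey) and each L2P array (orange) for the 12 largest rises (left) and the 12 largest falls (right); short vertical bars mark the means of 3 arrays. For every gene the 3 L2P arrays lie beyond the 3 NMuMG arrays, as the choice required; Lhfp runs from 2.20 to 10.37 and F2r from 10.72 to 2.30.

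CACCTG is the E-box that the EMT repressors of the Snail and Zeb families bind. Their action on the genes shown here was not tested. Promoter sequences of 4 of the largest falls are shown, picked because each holds this motif. They are the 250 bases before the RefSeq start of each gene, 5′ to 3′ on the gene's strand (GRCm38.p6), with CACCTG or its reverse complement CAGGTG in capitals: Krt7 at chr15:101412153-101412402 (plus strand), Lgals4 at chr7:28833544-28833793 (plus strand), Eva1b at chr4:126147753-126148002 (plus strand) and Cmtm7 at chr9:114781994-114782243 (minus strand).
Krt7: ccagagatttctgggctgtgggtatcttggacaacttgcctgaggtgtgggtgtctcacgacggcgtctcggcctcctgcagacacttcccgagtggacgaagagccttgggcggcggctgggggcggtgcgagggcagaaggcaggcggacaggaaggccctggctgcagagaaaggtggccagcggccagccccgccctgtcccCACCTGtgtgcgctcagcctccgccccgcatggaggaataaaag
Lgals4: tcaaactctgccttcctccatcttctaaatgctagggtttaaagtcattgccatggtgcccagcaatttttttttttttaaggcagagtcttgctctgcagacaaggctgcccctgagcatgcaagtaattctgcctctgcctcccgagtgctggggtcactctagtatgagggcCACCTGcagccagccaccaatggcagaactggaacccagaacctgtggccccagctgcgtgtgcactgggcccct
Eva1b: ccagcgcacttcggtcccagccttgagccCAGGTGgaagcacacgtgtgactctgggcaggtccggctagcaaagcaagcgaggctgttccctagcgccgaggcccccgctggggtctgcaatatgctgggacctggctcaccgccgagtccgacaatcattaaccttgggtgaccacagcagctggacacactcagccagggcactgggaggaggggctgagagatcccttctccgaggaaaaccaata
Cmtm7: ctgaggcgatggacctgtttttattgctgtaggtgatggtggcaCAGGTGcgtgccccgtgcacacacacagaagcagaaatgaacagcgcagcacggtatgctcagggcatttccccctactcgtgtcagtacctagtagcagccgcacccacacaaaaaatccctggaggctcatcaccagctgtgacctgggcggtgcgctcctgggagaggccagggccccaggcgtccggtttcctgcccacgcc

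The E-box began 44 bases before the start in Krt7, 75 in Lgals4, 221 in Eva1b and 206 in Cmtm7. RefSeq windows of 300 bases, from 250 before to 50 after the start, were on hand for 9 of the 12 largest falls, of which 4 held CACCTG, and for 10 of the 12 largest rises, of which 0 did. Over all 14368 tested genes with a window 19.7% held it on either strand. Among the genes that fell the share was 18.5% of 1290, among those that fell at least 2-fold 20.3% of 558, and among those that rose 15.2% of 789. The TEAD motif GGAATG was in 1875 of all 14368 windows, 11.7% of those of risen genes and 12.4% of those of fallen genes. For TGANTCA, the AP-1 motif, the shares were 6.3%, 5.6% and 5.2%. Among the largest rises GGAATG was in 2 of the 10 windows and TGANTCA in 0. Among the largest falls each was in 1 of the 9. None of the 3 motifs contains another, a match is a run of letters and not a bound site, and no share was tested.

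Genes of epithelial structure that passed were mostly lower, beside 8.68% of all genes fallen and 5.56% risen. Of 12 keratin genes 5 fell and none rose, with Krt20 lower by 2.73 on the log2 scale beside Krt7, and with small falls of Krt18 (-0.52) and Krt8 (-0.38, adjusted p = 0.0493). Of 25 genes of apicobasal polarity and epithelial identity 6 fell and 1 rose. Those that fell include Crb3 (-1.61), a Crumbs protein of the apical membrane, Llgl2 (-1.57), a basolateral polarity protein, and Ehf (-1.73), an epithelial transcription factor; Klf4 rose by 1.18. Of 20 genes of adherens and tight junctions 3 fell and none rose. Ocln, the tight junction protein occludin, was 7.99, 8.92 and 8.61 in NMuMG and 6.02, 5.93 and 6.09 in L2P, a 5.62-fold fall with no overlap. Of 15 genes of desmosomes and hemidesmosomes 4 fell and 1 rose, the largest fall being that of the laminin chain Lamb3 (18.0-fold), which anchors epithelium to its basement membrane. The median log2 differences of these 4 lists lay between -0.21 and -0.14, near the -0.07 of all genes, so most members moved little. Over the removal of single arrays 3 to 5 keratin, 3 to 5 polarity and 2 to 3 junction genes fell. Desmosome genes that fell numbered 4 without the first L2P array, 2 without the second NMuMG array and 1 without each of the other arrays, and the 1 rise of that list was lost in all but the first of these. The call of Ehf was lost with another probe set and without single arrays, while those of Krt7, Krt20, Crb3, Llgl2, Ocln and Lamb3 held in every alternative that tested them.

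E-cadherin itself did not pass. Cdh1 read 10.97, 11.58 and 10.88 in NMuMG and 10.45, 10.51 and 10.46 in L2P, a log2 difference of -0.67 with a 95% interval from -1.22 to -0.11 and an adjusted p of 0.112 by limma. The L2P arrays lay below all NMuMG arrays, but the difference did not pass over all genes. N-cadherin, Cdh2, differed by 0.57 (interval -0.14 to 1.29, adjusted p = 0.308). Of 22 mesenchymal genes and EMT transcription factors 4 rose and 1 fell, with a median of 0.07. Snai2, the EMT repressor Slug, rose 14.1-fold, from 4.19, 4.27 and 4.03 to 7.31, 8.68 and 7.96. Fn1, the matrix protein fibronectin, rose 5.17-fold, from 5.97, 6.36 and 5.66 to a mean of 8.37 with an SD of 0.44, and its lowest L2P array lay above all NMuMG arrays. Twist2, another EMT factor, rose 3.95-fold. Vim, the intermediate filament of mesenchymal cells, was bright in NMuMG, at 13.32, 13.36 and 13.30, and rose by 0.45 on the log2 scale to 13.88, 13.71 and 13.75; its call was lost with another probe set and without the first or the third NMuMG array. S100a4, often counted with the mesenchymal genes, fell by 1.40. Over the removal of single arrays 3 to 5 of the list rose and 1 to 2 fell, 2 without the first L2P or the third NMuMG array.

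Signalling genes moved in both directions. Of 32 genes of TGF-beta, activin and BMP signalling 7 fell and 5 rose. The falls included Inhbb (12.6-fold), a subunit of activin and inhibin, Tgfbr3 (6.14-fold), the co-receptor betaglycan, and Smad7 (2.56-fold), an inhibitor of the pathway. The rises included the target Id3 (4.59-fold) and Fst (2.23-fold), the activin antagonist follistatin, whose call was lost without the first NMuMG array. Of 18 ErbB ligands, receptors and feedback genes 4 rose and none fell. Erbb3, a receptor for neuregulins, read 5.28, 6.39 and 5.63 in NMuMG and 10.89, 10.54 and 10.53 in L2P, a 29.5-fold rise, through 1 of its 2 probe sets; the other differed by 0.06. Its ligand gene Nrg1 rose by 0.99, a call lost after quantile normalization and without single arrays. Of 23 FGF, VEGF and PDGF ligands and receptors 7 fell and 1 rose. Beside Fgf13, the falls included Fgf18 (4.68-fold) and Vegfc (3.26-fold), a ligand for lymphatic vessels, and the rise was the VEGF receptor Flt1 (3.15-fold). Over the removal of single arrays 2 to 5 TGF-beta genes rose and 4 to 6 fell; the fewest rose without the third and the fewest fell without the second NMuMG array. Of the ErbB genes 2 to 3 rose, 2 without the third L2P or the first NMuMG array, and 1 fell without the latter; 6 to 7 of the FGF list fell.

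In the Hippo pathway, whose TEAD factors bind DNA for the coactivators Yap and Taz, 2 of 19 genes rose and 2 fell. Both risen genes were TEAD factors. Tead2 went from 3.17, 3.75 and 3.22 to 7.91, 7.08 and 7.33 (16.7-fold), and Tead1 rose 4.59-fold. Both fallen genes were targets, Ccn2 (3.20-fold) and Ccn1 (2.92-fold), and their calls were lost without the third L2P array. Of 28 Wnt genes 4 fell and 2 rose, led by Wnt7b (3.74-fold lower) and Wnt10a (3.51-fold higher, a call lost without the first L2P or the third NMuMG array). Of 13 Notch genes 1 fell, the target Hey1 (3.08-fold). The shares that rose and fell were 10.5% and 10.5% in the Hippo list and 7.1% and 14.3% in the Wnt list. Of the Notch genes 7.7% fell, beside 5.56% of all genes risen and 8.68% fallen. With single arrays removed 1 Wnt gene rose and 2 to 3 fell, 3 without the first L2P or the third NMuMG array. Without the first L2P array 3 Hippo genes fell, and without the third 0 did.

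Of 11 genes of hnRNP E1's known translational targets and the LIFR axis, 2 fell and none rose. The falls were the kinase Jak2 (3.51-fold, lost without single arrays) and its feedback inhibitor Socs3 (2.88-fold, 10.55, 10.75 and 10.68 against 9.63, 8.87 and 8.90). The targets Dab2 and Fam3c, which encodes the secreted factor ILEI, differed by -0.12 (95% interval -0.56 to 0.33) and -0.28 (-0.64 to 0.07), and the receptor Lifr by -0.04 (-0.39 to 0.30). Fam3c was bright, at 9.83 in NMuMG and 9.55 in L2P. Dab2 (3.87 and 3.75) and Lifr (3.77 and 3.73) lay below the median signal of the arrays in both lines. At such low signals a difference in RNA may not show. Over the removal of single arrays 0 to 1 of the list rose, 1 without the first NMuMG array, and 1 to 2 fell, 1 without the first L2P and without the first or the third NMuMG array. The activin gene Inhba differed by 0.51 (adjusted p = 0.181). Arrays read RNA and not translation, so a change in protein output would not appear here.

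Mammary lineage and surface genes changed in part. Of 24 luminal, basal and milk genes 4 rose and 1 fell. Foxa1, a luminal transcription factor, rose 19.3-fold, from 3.47, 3.41 and 2.81 to 7.42, 7.58 and 7.50. Procr, a receptor described on mammary stem cells, rose 6.91-fold, and Sox9, a progenitor factor, 3.14-fold. The apical mucin Muc1 fell 16.1-fold, from 11.19, 11.26 and 10.91 to 7.67, 6.99 and 6.68, without overlap. Of 18 S100, annexin and LIM genes 8 fell and 3 rose, with a median of -0.42. S100a8 and S100a9, which form calprotectin, fell by 4.67 and 3.70 on the log2 scale, while Crip2 rose 9.76-fold beside Crip1. S100a8 ran from 8.54 to 9.52 in NMuMG and from 3.69 to 5.37 in L2P. Of 20 genes described for lung metastasis 4 rose and 2 fell. The rises included Vcam1 (3.02-fold), an adhesion molecule, Id3 and Id1 (0.90 on the log2 scale), and the falls were S100a4 and Tspan8 (-1.21); those of Id1 and Tspan8 were lost without single arrays. Of the metastasis list 2 to 3 rose and 1 to 2 fell over the removal of single arrays, with 2 rises without the second or the third and 1 fall without the first or the third NMuMG array.

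Genes of immune visibility and secreted signals were also among the changed. Of 13 MHC class I presentation genes 3 rose and none fell. H2-D1 read 5.53, 6.09 and 4.46 in NMuMG and 9.36, 9.11 and 9.13 in L2P (14.3-fold), H2-K1 rose 9.02-fold and H2-M3 2.94-fold. H2-D1 and H2-K1 are close copies whose probe sets can share signal; 7 of 9 probe sets named H2-D1 rose and 1 of 4 named H2-K1. Without the first L2P array 2 genes of that list fell beside the 3 rises. Of 28 cytokine and chemokine genes 6 fell and 3 rose. Cxcl3 read 2.61, 2.77 and 2.86 in NMuMG and 9.18, 9.42 and 8.52 in L2P, and its relative Cxcl2 rose 3.18-fold. The scavenging chemokine receptor Ackr3 fell 26.9-fold, from 7.61, 7.37 and 7.77 to 3.15, 2.70 and 2.66, and Ccl2 and Il18 fell 2.42-fold and 2.36-fold. Of 27 interferon-response genes 3 rose and 3 fell, with a median of -0.05, and 2 to 3 in each direction over the removal of single arrays. With all arrays 11.1% of the list rose and 11.1% fell, beside 5.56% of all genes risen and 8.68% fallen.

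**Figure D3:**
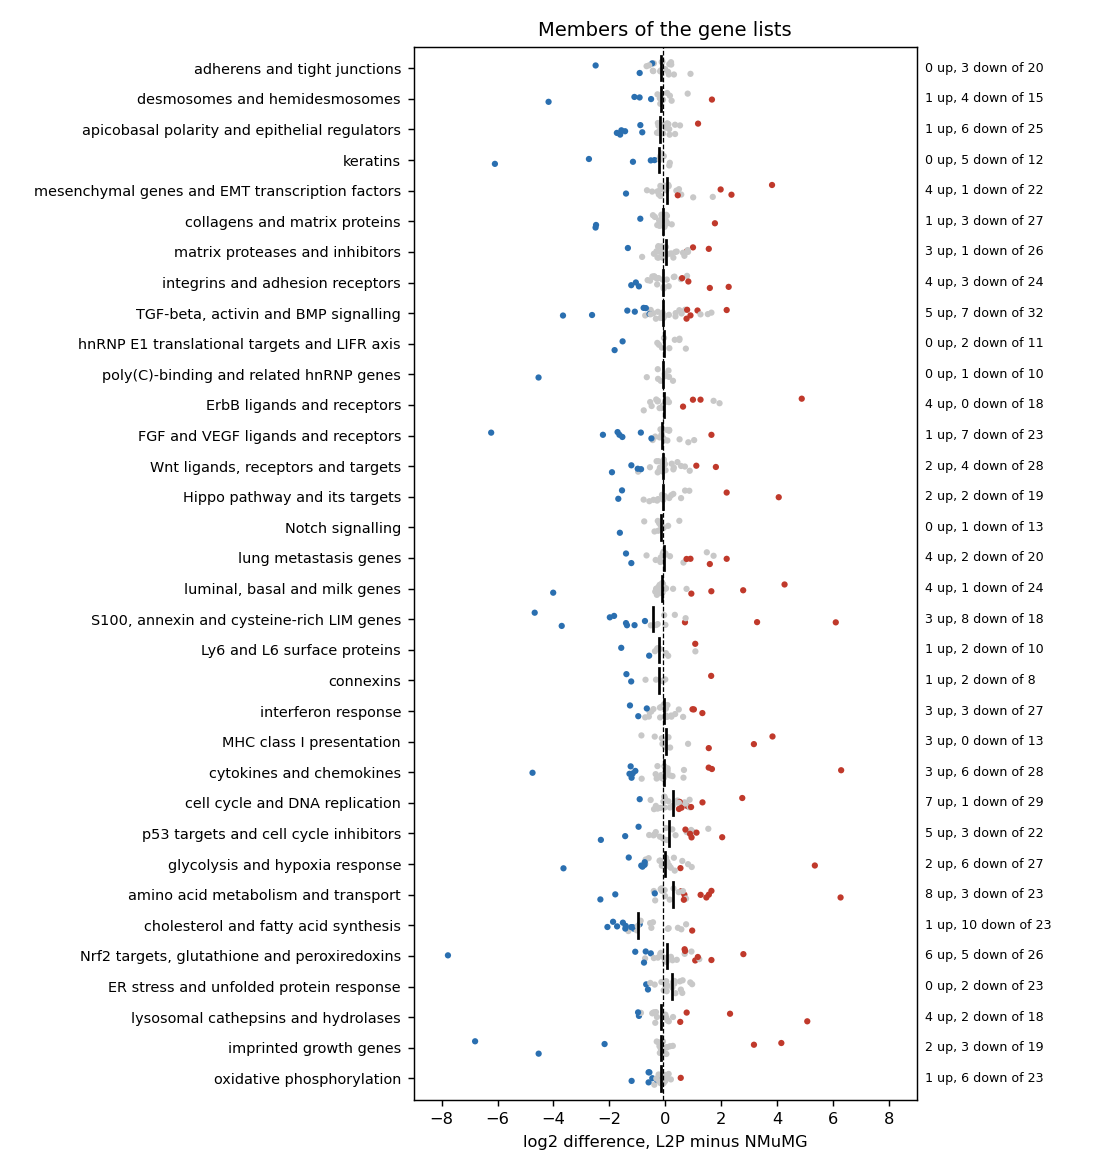
Each point is a gene of 1 of 34 lists, placed by its L2P minus NMuMG log2 difference; red points rose, blue points fell, grey points did not pass. Black bars are list medians, the dashed line is the median of all genes (-0.07), and the counts on the right give genes that rose and fell of those tested. The lowest median is that of cholesterol and fatty acid synthesis (-0.98) and the highest that of amino acid genes (0.30).

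Metabolic genes gave the list with the lowest median. Of 23 genes of cholesterol and fatty acid synthesis 10 fell and 1 rose, with a median of -0.98 against -0.07 for all genes. All 10 falls were of sterol genes. They were the mevalonate enzymes Pmvk (3.65-fold), Mvd (-1.51 on the log2 scale) and Mvk (-1.43), then Fdps (4.19-fold), which makes farnesyl diphosphate, Fdft1 (3.30-fold), which makes squalene, Lss (-1.41), Cyp51 (-0.91) and Ebp (-1.16), and the regulators Srebf2 (-1.13) and Insig1 (-1.22). Fdps read 10.91, 10.98 and 10.93 in NMuMG and 9.08, 8.71 and 8.82 in L2P; its second probe set differed by -0.07. Another 6 sterol genes did not pass, with log2 differences of -1.32 for Hmgcs1 (adjusted p = 0.0816), -1.02 for Idi1, -0.98 for Hsd17b7 (adjusted p = 0.0533), -0.88 for Sc5d, -0.54 for Sqle and -0.44 for Dhcr7. The fatty acid synthase Fasn rose by 0.97, a call lost without single arrays, and Acaca (0.58), Acly (0.12) and Scd2 (-0.50) did not pass. Without the first L2P array 10 members fell, and over the removal of single arrays 8 to 10 did.

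Of 23 genes of amino acid metabolism and transport 8 rose and 3 fell, with a median of 0.30. Beside Slc38a1, the cystine transporter Slc7a11 rose 3.15-fold and the large neutral amino acid transporter Slc7a5 2.95-fold, from 9.71, 9.54 and 9.12 to 11.17, 11.08 and 10.80. The aminotransferase Got1 fell 4.99-fold, with NMuMG arrays from 9.84 to 10.11 and L2P arrays from 7.49 to 7.86, and the glutamine synthetase Glul fell 3.45-fold. Of 26 genes of the Nrf2 response, glutathione and peroxiredoxins 6 rose and 5 fell. The glutathione transferase Gstm2 rose 6.95-fold, and Prdx2 (2.10-fold) and Gpx4 (1.69-fold) fell beside Prdx4. Of 27 glycolysis and hypoxia genes 6 fell and 2 rose. Pfkp and Aldoa (0.55) rose, while the hypoxia factor Epas1 (12.5-fold) and the glucose transporter Slc2a1 (1.81-fold) fell. Of 23 nuclear genes of oxidative phosphorylation 6 fell and 1 rose, led by Ndufb8 (2.30-fold) of complex I, with Uqcrc2 (0.56) higher; 3 to 4 fell over the removal of single arrays, 4 without the first or the second L2P or the second NMuMG array. In the same removals 5 to 7 amino acid genes rose and 2 fell without each array, the fewest rising without the second L2P and without the second or the third NMuMG array. Nrf2 and glutathione genes that rose numbered 4 to 6, with 4 without the third L2P or the first NMuMG array, and 3 fell in each removal except without the first L2P array, where 6 did. Glycolysis and hypoxia genes that fell numbered 3 without the third L2P array, 4 without the first NMuMG array, 7 without the first L2P array and 5 without each of the others.

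Of 29 cell cycle and DNA replication genes 7 rose and 1 fell, with a median of 0.28. Ccnd1, cyclin D1, rose by 0.93 from 12.16, 12.02 and 11.95 to 13.01, 12.94 and 12.95. Mki67, the proliferation antigen, read 10.31, 7.75 and 8.67 in NMuMG and 10.89, 12.01 and 12.10 in L2P, so the first NMuMG array and the first L2P array came close, and its call was lost without single arrays. Over the removal of single arrays 3 of the list rose, or 4 without the second L2P array. Of 22 p53 targets and cell cycle inhibitors 5 rose and 3 fell, among them Plk2 (2.17-fold higher) and the stress gene Gadd45b (4.93-fold lower). Of 18 lysosomal genes 4 rose and 2 fell, with Ctsh (4.99-fold) higher beside Hexa. With single arrays removed 3 to 6 p53 genes rose, the fewest without the third NMuMG array, and 1 to 2 fell, 2 without the first or the third L2P array. In the lysosomal list 2 rose without each array except the third L2P array, where 3 did, and 1 fell without the second NMuMG array. Of 19 imprinted growth genes 3 fell and 2 rose. Ndn, a paternally expressed growth suppressor, fell 4.50-fold beside Peg3, and Ddc fell 23.1-fold, while Igf2r, the receptor that clears Igf2, rose 9.03-fold and Impact 17.8-fold.

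Genes of the matrix, of adhesion and of gap junctions moved in both directions. Of 27 collagen and matrix genes 3 fell and 1 rose, with Thbs1 (5.63-fold) and Lamb1 (5.56-fold) lower and Fbln2 (3.43-fold) higher. Their shares, 11.1% fallen and 3.7% risen, were near the 8.68% and 5.56% of all genes. Of 26 proteases and inhibitors 3 rose and 1 fell, Timp1 (2.52-fold). Of 24 integrins and adhesion receptors 4 rose and 3 fell, among them Ddr2 (4.83-fold higher), a collagen receptor. Of 8 connexins 2 fell and 1 rose, with Gjb5 (2.62-fold) and Gjb1 (2.33-fold) lower and Gjc1 (3.12-fold) higher. Of 10 Ly6 and L6 surface genes 2 fell and 1 rose, and of 23 genes of the unfolded protein response 2 fell and none rose, although 16 had a positive difference and the median was 0.25. Without the M1P arrays 4 genes of that list rose, without the first L2P array 4 fell, without the second or the third L2P array 0 fell, and without each NMuMG array 1 did. Of the integrins 2 to 3 rose over the removal of single arrays, 2 without the second L2P and without the first or the third NMuMG array, and 0 fell without the second or the third L2P or the second NMuMG array. Only 1 integrin fell without the first NMuMG array. Without the first L2P array 2 proteases fell, and Ly6 genes that fell numbered 1 without the second L2P and without the first or the second NMuMG array. Over all named genes, 101 of 183 had more than 1 probe set, and in 0 of them did probe sets pass in opposite directions. Several named genes passed through only some of their probe sets, and those given here are not all of them. The second of 2 probe sets did not pass for Tgfbr3 (-0.14), Ddc (0.03), Fgf13 (-0.44), Fn1 (0.33) and Tead1 (0.33), as log2 differences. The same held for Gjb1 (-0.51), Fbln2 (0.75), Ctsh (1.13), Plk2 (-0.15) and Abcb1b (-0.35), a gene named below. In Plk2 and Abcb1b that second value was opposite in sign to the rise. For Lamb1 2 of 4 probe sets fell, and for Vcam1 1 of 3 rose. For Tspan8 4 of 5 fell, and the highest difference was 0.63. For Peg3 3 of 5 probe sets fell, and the highest difference among the 5 was 0.06.

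The net change can be laid out along the lines from which L2P descends. The steps share arrays and sum to the net difference, so they show where a gene took its L2P level and are not separate evidence. In E1KD against NMuMG 3.0% of genes rose and 6.49% fell. In L1P against E1KD 1.19% rose and 1.29% fell, and in L2P against L1P 0.0934% rose and 0.0495% fell. Of the 537 genes that rose at least 2-fold in L2P over NMuMG, 340 (63.3%) had their largest step at E1KD, 158 (29.4%) at L1P and 39 (7.3%) at L2P. Of the 687 that fell at least 2-fold, 515 (75.0%) had it at E1KD, 155 (22.6%) at L1P and 17 (2.5%) at L2P. The largest step did not have to pass by itself. It passed in 243 of the 340, 88 of the 158 and 13 of the 39 risen genes. Among the fallen genes it passed in 442 of the 515, 93 of the 155 and 5 of the 17. By largest step, the 12 largest rises counted 10, 1 and 1, and the 12 largest falls 8, 3 and 1. The distance between arrays ran alike, at 47.92 between L2P and L1P and 69.71 between L2P and E1KD, with the L2P to L1P distance no larger than that within L2P.

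Genes whose largest step came at E1KD include Lhfp, which read 9.44, 8.92 and 9.23 in E1KD, and Prdx4, which read 2.76, 2.69 and 3.03 there. For Lhfp the later steps of 0.60 in L1P and 0.41 in L2P did not pass, although L2P lay above E1KD by 1.02 (adjusted p = 0.0364). For Prdx4 the later steps were 0.01 and -0.24, and neither passed. Krt7 read 5.23, 4.68 and 4.52 in E1KD, and its later steps of -0.44 and -0.20 did not pass. Cdh16 fell by 4.75 in E1KD and by a further 1.53 in L1P, and F2r by 4.36 and 3.96, each step passing.

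Other genes had their largest step in the first lung line, some of them after a change in E1KD. Crip1 read 5.40, 5.06 and 5.48 in E1KD and 11.71, 11.82 and 11.39 in L1P. Erbb3 read 4.63, 4.63 and 4.84 in E1KD, 1.07 below its NMuMG mean (adjusted p = 0.119), and 10.57, 10.33 and 10.40 in L1P. In neither gene did E1KD and L1P arrays overlap, and the L2P minus L1P differences of 0.11 and 0.22 did not pass. The drug efflux pump Abcb1b rose by 4.57 at that step after a fall of 0.97 in E1KD. Peg3 was high in E1KD, at 10.90, 11.47 and 11.14 (1.52 over NMuMG, adjusted p = 0.185), fell to 5.64, 4.40 and 5.84 in L1P and read 3.31, 2.71 and 2.54 in L2P. Klhl13, on the X chromosome, fell by 1.43 in E1KD and by 5.41 in L1P. Xist, the RNA that coats the inactive X chromosome, read 8.66, 7.78 and 7.57 in NMuMG, 10.07, 10.77 and 9.16 in E1KD, 3.98, 3.83 and 3.98 in L1P and 4.44, 3.75 and 3.91 in L2P; its rise of 1.99 in E1KD passed. Of 617 genes on the X chromosome 20 rose (3.24%) and 59 fell (9.56%) in the net comparison, beside 5.56% and 8.68% of all genes.

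A few genes had their largest step at the second lung passage. Cxcl3 read 2.44, 2.51 and 2.54 in L1P before its L2P values above 8, a difference of 6.54 (adjusted p = 0.000330). Fgf13 read 9.88, 9.33 and 9.78 in L1P and 2.72, 2.25 and 2.45 in L2P, a fall of 146-fold (log2 difference -7.19, adjusted p = 2.73e-09), after a rise of 1.28 in E1KD. Slc4a5, a bicarbonate transporter, read 2.81, 2.66 and 2.74 in NMuMG and 6.24, 5.86 and 5.99 in L2P, and 3.27 of its log2 rise came at this step. Cxcl2 (2.06), the leukocyte integrin gene Itgb2 (2.81) and Xdh, xanthine dehydrogenase (2.35), also rose there, and the vesicular transporter Slc18b1 fell by 2.18 after a fall of 1.61 in E1KD. Itgb2 read 4.38, 4.67 and 4.26 in NMuMG and 7.02, 6.37 and 6.49 in L2P. Of the 12 macrophage and leukocyte markers, 6 lay higher and 6 lower in L2P, with a median net log2 difference of -0.01. Among them were Cd68 at 1.17, Lyz2 at 0.92, Ptprc at -0.03, Itgam at -0.17, Csf1r at -0.44 and Cd14 at -1.05. The part of such cells in the Itgb2 values was not tested.

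Net values hide genes that went out and came back. Of these, 27 were higher and 23 lower in E1KD, passing at least 2-fold in E1KD and back again in L2P, with a net difference under 0.5. Bcat1, which transaminates branched-chain amino acids, read 2.40, 2.42 and 2.51 in NMuMG, 7.94, 6.84 and 7.58 in E1KD, 2.61, 2.54 and 2.33 in L1P and 2.52, 2.23 and 2.18 in L2P. Gatm, the first enzyme of creatine synthesis, ran the same course, at 7.32 to 7.53 in E1KD and 2.37 to 2.51 in L2P. Pmp22, Chst15 and Arhgdib were the other largest of those raised in E1KD. The tight junction gene Marveld2, tricellulin, fell by 2.96 in E1KD and lay 0.41 below NMuMG in L2P (95% interval -0.86 to 0.05), and Zfp764, Shroom3, Arap3 and Zbtb32 were the other largest of those lowered. Tm4sf1, an L6 surface protein linked to invasion, was near this pattern but overshot. It read 12.23, 11.91 and 12.24 in NMuMG, 6.85, 6.12 and 6.35 in E1KD, 11.26, 11.03 and 11.24 in L1P and 13.39, 13.05 and 13.16 in L2P, and its net rise was 2.11-fold (log2 difference 1.07, SE 0.18, adjusted p = 0.000911).

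**Figure D4:**
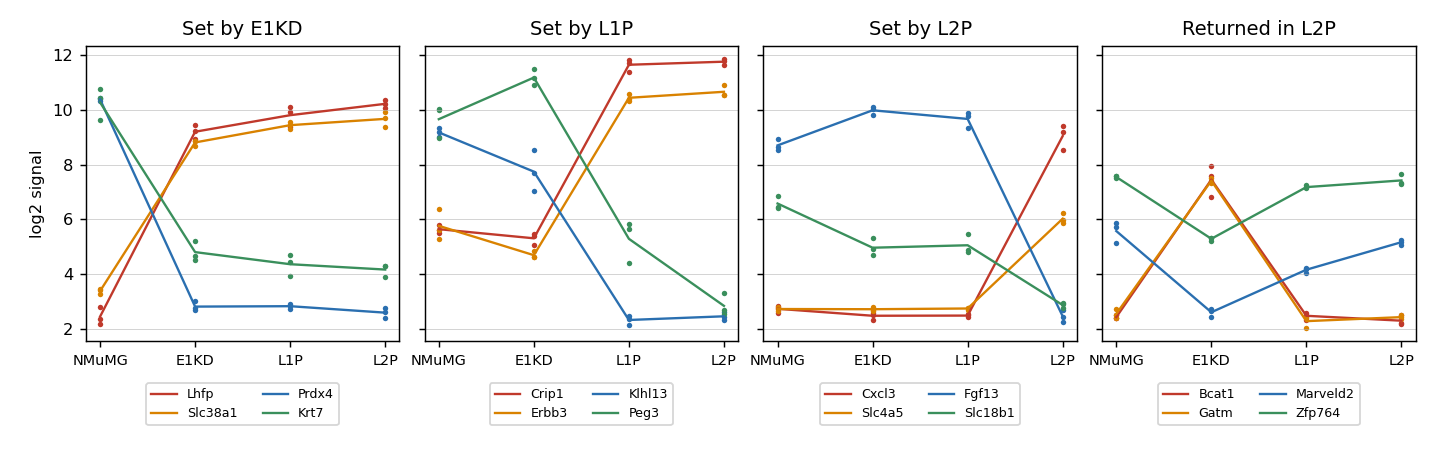
Log2 signal in NMuMG, E1KD, L1P and L2P for genes whose largest step came at E1KD, at L1P or at L2P, and for genes that returned. Points are arrays (3 per line) and lines join the means. The panel titles name the largest step, and Peg3, placed at L1P, fell further in L2P. Lhfp moves at E1KD, Crip1 at L1P and Cxcl3 at L2P, while Bcat1 rises in E1KD by 5.01 and falls back.

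The changed genes were not spread evenly over the chromosomes. On chromosome 14, 125 of 640 genes rose (19.5%, beside 5.56% of all genes) and 18 fell (2.81%, beside 8.68%). On chromosome 19, 168 of 609 fell (27.6%) and 13 rose (2.13%). Among genes with a mean signal of 8 or more, the median log2 difference was 0.69 for 121 genes of chromosome 14 and -0.59 for 201 of chromosome 19. For such genes on the other chromosomes it lay between -0.31 (chromosome 17) and 0.41 (chromosome 18). In order along chromosome 14, cut into 10 runs of about equal gene number, the first 2 runs each had 42.2% risen, and the later ones from 9.38% to 23.4%. On chromosome 19 the share that fell was between 13.3% and 39.3% in each of its 10 runs. Chromosomes 3 (15.8%) and 17 (13.1%) also had more falls, chromosome 7 more rises (9.20%), and chromosome 13 few falls (2.99%).

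By step, 6.88% of chromosome 14 genes rose in E1KD and 9.69% in L1P, beside 3.0% and 1.19% of all genes, and 0 in L2P over L1P. In E1KD 7.66% of them also fell, beside 6.49% of all genes. Of the chromosome 19 genes 14.9% fell in E1KD and 7.06% in L1P, beside 6.49% and 1.29%. The sterol enzyme gene Fdft1, which fell, lies on chromosome 14, while Got1, Ndufb8 and Jak2 lie on chromosome 19. Without the first L2P array 20.3% of chromosome 14 genes rose and 29.2% of chromosome 19 genes fell. Neighbouring genes are not independent, no test was made, and DNA was not measured.

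**Figure D5:**
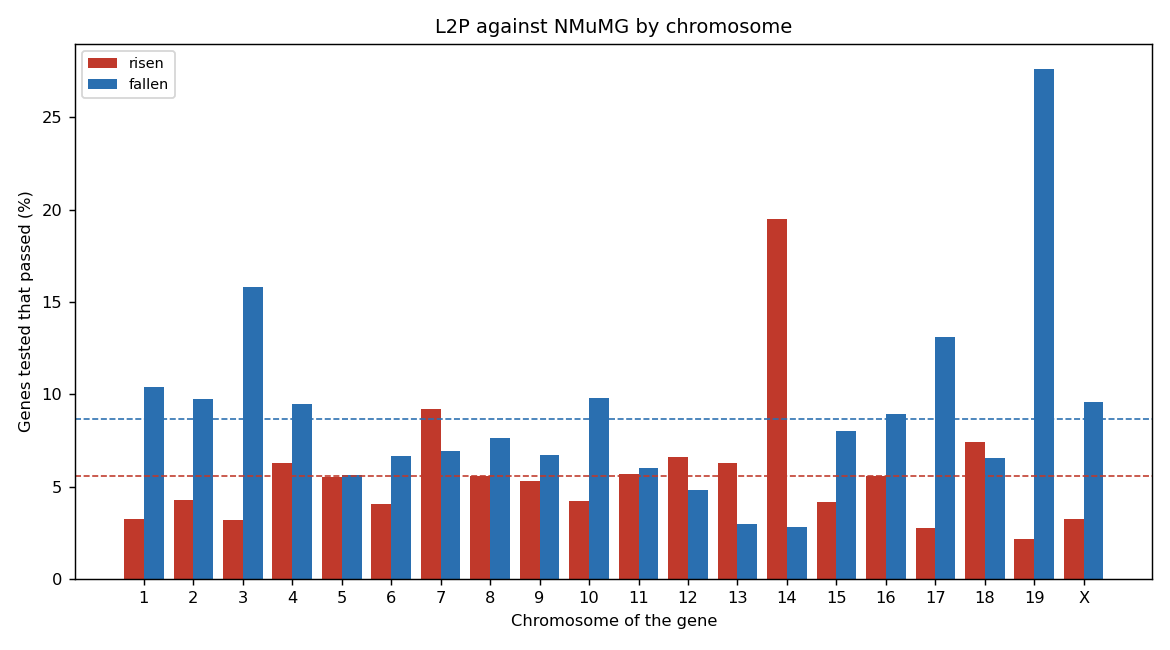
Percent of the tested genes of each chromosome that rose (red) or fell (blue) in L2P against NMuMG; dashed lines mark the same over all genes, 5.56% risen and 8.68% fallen. Chromosome 14 stands highest in rises (19.5%) and chromosome 19 in falls (27.6%).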

How the data were processed

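The authors deposited 1 table of signals on the log2 scale, with 45101 probe sets in rows and 15 arrays in columns, which was not altered. The submitters' processing notes name the Affymetrix Expression Console, RMA and MAS5, without versions; which gave the table is not stated there. Probe sets were named by the platform annotation and their symbols updated through Entrez numbers to RefSeq (GRCm38.p6); 34945 had 1 symbol, 932 several, 9160 none and 64 were controls. limma 3.58.1 in R 4.3.3 fitted 1 coefficient per line to all 15 arrays, with two-sided moderated tests and Benjamini-Hochberg adjustment over 18193 genes at 0.05, and was tested on simulated data. Degrees of freedom were 10 residual and 2.98 prior. Arrays carry no read depth, and their number limits the precision.

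Named genes are 13 fixed genes, the 12 largest rises and falls without overlap, up to 3 rises and 3 falls per list, 4 per step and direction, and 5 returned genes per direction; a few other list members are named with their values. Members and lists were chosen with earlier results of these data known; 745 of 793 list genes were tested. Same-numbered L2P and NMuMG arrays deviated with correlations of -0.211, -0.396 and 0.367, so the numbers were not taken to pair them. The alternatives changed the arrays, normalization, probe set, dim-gene filter and spread.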

Additional observations from a re-analysis of the deposited data

Results flagged for a closer look

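Data outside the comparison of genes also carried differences. Of 10092 probe sets with several symbols or none, tested apart by limma, 371 passed in L2P against NMuMG (3.68%), 139 higher and 232 lower, with log2 differences from -8.41 to 4.16. They are not named here.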

How the results depend on the processing

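Of 167 passing named genes, 122 passed in every alternative, of 16, that tested them and 0 changed direction; 185 comparisons of a gene with an alternative lost the call and 8 gained one. The count of 2591 genes was 4475 without the M1P arrays (1989 risen, 2486 fallen) and 7024 with array weights (2843 risen, 4181 fallen; 2060 at least 2-fold). Leaving out single L2P or NMuMG arrays gave 1718 to 2906 genes, 700 to 1021 risen, 1018 to 1885 fallen and 1050 to 1526 at least 2-fold; the lowest total and fewest falls came without the third L2P array, and without the second 1033 fell. Chosen after seeing the data, leaving out L2P array 1 with the M1P arrays gave 6287 (2744 risen, 3543 fallen, 2221 at least 2-fold), and leaving out NMuMG array 2 as well gave 5666 (2620, 3046 and 2026). The cause was not tested. The replicate block gave 3162 genes, and 2572 of the 2591 kept call and direction; the numbers do not pair the samples. The 6 arrays alone gave 3152, quantile normalization 2485, the probe set of largest variance 2699, a trended spread 2480 and the filter on dim genes 2422 of 11403. Low signals have no detection call.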
